A study of Mus musculus with 21 samples.

Results

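The mitochondrial ribosomal protein genes are the nuclear genes whose symbols begin with Mrpl or Mrps followed by a number. In the mouse count table that was deposited, 77 of 17164 genes carried such a symbol, and all 77 passed the filter on low counts. By subunit, 50 were counted with the large and 27 with the small one. Mrps36, counted with the small subunit for its symbol, encodes a protein since described as a part of the 2-oxoglutarate dehydrogenase complex, and it was called in none of the comparisons. Mrps30 and Mrps18a were placed with the large subunit, where their proteins sit in spite of the symbols. The members lie on 17 chromosomes, most often on chromosome 11 with 10 genes, and the annotation lists every member as protein coding.

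Mitoribosomes are the ribosomes inside mitochondria. They translate the few messenger RNAs made from mitochondrial DNA, which encode core subunits of the respiratory chain and of ATP synthase. Their ribosomal RNAs come from mitochondrial DNA, whereas every one of their proteins is encoded in the nucleus, made in the cytosol and imported. Part of these proteins have bacterial counterparts, and the others were gained in the mitochondrial lineage. Retinal neurons depend on mitochondrial respiration, and retinal ganglion cells, which send the axons of the optic nerve, carry many mitochondria in their axons.

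The libraries came from sorted retinal ganglion cells of C57BL/6 mice, 6 to 7 weeks old, 3 days after a crush of the optic nerve. The control group had 4 libraries (title "non", genotype "WT Control"), and the cells of the other groups received guide RNAs against a stress-response transcription factor. There were 5 libraries labelled ATF3 Knockout, 2 labelled ATF4 Knockout, 4 labelled CEBPG Knockout and 5 labelled CHOP Knockout, CHOP being the protein of Ddit3. The sources used here do not give the source of Cas9 or how the guides were delivered. All 5 groups share the crush, and no uninjured group was analysed here. Of the 21 libraries 1 was left out, since its title is of the control series but its genotype is CHOP Knockout. In the deposited sample sheet the controls were male mice of batch 2, and the ATF3, CEBPG and CHOP libraries were female mice of batch 3. The 2 ATF4 libraries were batch 1, listed as a female (replicate 1) and a male mouse (replicate 3). Against control, the targeted factor therefore cannot be told apart from batch, and for ATF3, CEBPG and CHOP not from sex. ATF3, CEBPG and CHOP shared batch and sex and could be compared with each other within them.

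Each library held 6401446 to 32776378 counted reads, of which 22086 to 115006 fell on the members, and the lowest count of a member in a library was 55 reads. The 14 ganglion cell markers summed to 601 to 782 CPM in controls and to 497 to 820 CPM in the knockout libraries (CPM being counts scaled to the library's total times its TMM factor), and Pou4f2, a defining marker, was at 0 in at least 1 library of every group except ATF4. Against control 6 of these markers were higher and 0 lower in ATF4 libraries (median log2 fold change 0.81). In ATF3, CEBPG and CHOP libraries 3, 1 and 2 were higher and 6, 5 and 4 lower (medians -1.01, -0.52 and -0.58), and their part in the members' values was not tested. The 14 rod markers summed to 38150 to 60010 CPM in controls and to 3198 to 9086 CPM in the knockout libraries. The 10 lymphocyte markers summed to 6.75 to 15.3 CPM in controls, where 6 of them were at 0 in at least 1 library, and to 1417 to 2290 CPM in the CEBPG libraries. The 10 Müller glia markers had group means of 7067 to 12850 CPM and the 12 microglia markers of 5335 to 8485 CPM. Both were above the ganglion cell sums in every group. Such sums do not give shares of cells, but the members' values cannot be assigned to ganglion cells alone. CEBPG replicates 6 and 8 stood apart from all other libraries on the fourth principal component (scores of -99.3 and 102.1). The sheet lists a female mouse for ATF4 replicate 1, whose library had the Y-linked genes Ddx3y and Eif2s3y at 59.4 and 79.5 CPM. Xist, the RNA of the inactive X chromosome, was at 0.251 CPM there, against 242 to 523 CPM in the batch 3 libraries. By these counts the library came from a male. In bulk samples, fewer cells of a type and less RNA per cell cannot be told apart. Of the targeted genes, Atf3 was lower in the ATF3 libraries (log2 fold change -1.56, adjusted p = 2.41e-05) but also in the CHOP libraries (-1.62). Atf4 was lower in the ATF4 libraries (-0.97, adjusted p = 0.000211) and had lower values still in ATF3, CEBPG and CHOP libraries (-1.77, -1.22 and -1.5). Ddit3 was lower in the CHOP libraries (-0.43, adjusted p = 0.00908) and in ATF3 and CEBPG libraries (-0.51 and -0.41). Cebpg was lower in ATF3, ATF4 and CHOP libraries (-0.42, -0.63 and -0.58) but had -0.16 in the CEBPG libraries (adjusted p = 0.491). None of these counts singled out its own label.

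The members' RNA levels spanned 40.7-fold per length. The level was taken as CPM per kilobase of the gene's median transcript length, averaged over the 5 groups with equal weight. Its median was 38.7 CPM per kb, and it was 43.2 for large subunit genes and 32.2 for small subunit genes. Mrpl20, whose bacterial counterpart acts early in large subunit assembly, was highest at 167 CPM per kb. It was followed by Mrps21 (110 CPM per kb), Mrpl27 (109), Mrpl41 (106) and Mrpl33 (98.6), whose ranges of group means overlapped one another. The lowest were Mrpl35 (7.33 CPM per kb), the small subunit gene Mrps35 (6.68) and Mrpl47 (4.1), and all 3 have long transcripts of over 3 kb, between 3364 and 4162 bases. The median within-group coefficient of variation was 13.1% over the members and 21.5% over the 16797 genes tested. Genes were not matched for level, so this gap cannot be read as a trait of the members.

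**Figure D1:**
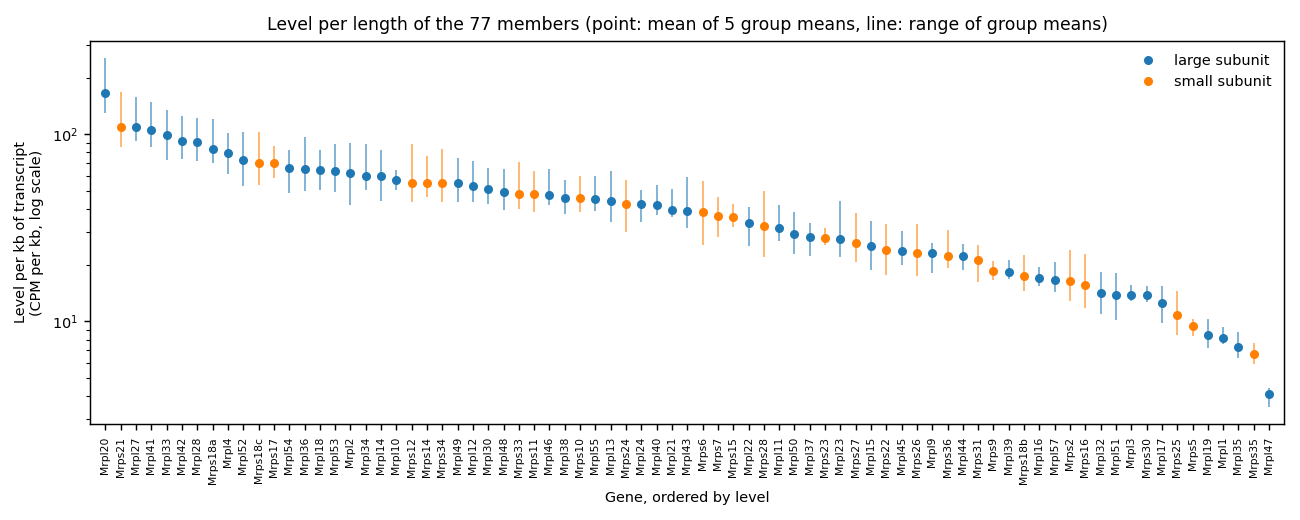
Level per length of the 77 members in CPM per kb of transcript on a log axis, ordered from high to low. Points are the mean of the 5 group means and lines the range of the group means, with large and small subunit genes in 2 colours. Levels run from 167 CPM per kb for Mrpl20 to 4.1 for Mrpl47.

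RefSeq promoter windows were at hand for 68 of the 77 members, in 74 windows of 300 bases (GRCm38.p6, 250 bases before to 50 after a start). A set of 3 short motifs of factors known for nuclear genes of mitochondrial proteins were searched on both strands: CCGGAAG (the ETS core bound by GABPA, also called NRF2), GCATGCG (from the NRF1 site) and AAGATGG (from the YY1 site). The last letters of the ETS motif can overlap the first of the YY1 motif, and the NRF1 motif can overlap its own reverse complement. The ETS letters occurred in 33.8% of member windows, against 14.2% of the windows of all counted genes and 8.86% of all 32851 windows. The NRF1 letters occurred in 10.8%, against 5.5% of counted genes, and the YY1 letters in 17.6%, against 6.4%. The median GC content was 58.5% in member windows and 52.7% in all windows, and its part in these shares was not tested.

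The 100 bases around a start (75 before, 25 after) are given for 6 members, 5′ to 3′ on the gene's strand, with motif letters in capitals. The 6 were picked by hand from those named below and do not stand for the rest. Mrpl52 (chr14:54426834-54426933, plus strand), Mrpl33 (chr5:31613876-31613975, plus) and Mrps12 (chr7:28741797-28741896, minus) rose in the ATF4 libraries. Mrpl32 (chr13:14613013-14613112, minus) and Mrpl2 (chr17:46646146-46646245, plus) fell in ATF3 and CHOP libraries, and Mrps6 (chr16:92058261-92058360, plus) was higher in every knockout. Mrps6 also had the largest rise of the members in ATF4 libraries (log2 fold change 1.13). Mrpl36 and Mrpl13, also among the largest rises there, are not printed.
Mrpl52: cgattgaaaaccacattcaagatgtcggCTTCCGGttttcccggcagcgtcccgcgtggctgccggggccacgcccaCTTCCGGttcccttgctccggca
Mrpl33: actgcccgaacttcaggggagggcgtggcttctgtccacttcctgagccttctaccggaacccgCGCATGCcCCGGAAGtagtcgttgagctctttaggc
Mrps12: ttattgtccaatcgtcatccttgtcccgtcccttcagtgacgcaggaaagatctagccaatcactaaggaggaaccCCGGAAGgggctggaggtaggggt
Mrpl32: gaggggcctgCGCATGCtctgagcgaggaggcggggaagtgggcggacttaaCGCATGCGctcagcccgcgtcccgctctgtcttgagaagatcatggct
Mrpl2: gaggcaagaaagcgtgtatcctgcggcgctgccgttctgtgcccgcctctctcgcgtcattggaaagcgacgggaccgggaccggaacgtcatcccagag
Mrps6: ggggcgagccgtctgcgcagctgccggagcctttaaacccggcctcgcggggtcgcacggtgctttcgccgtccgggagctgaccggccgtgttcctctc
The ETS letters stand near the start in Mrpl52, Mrpl33 and Mrps12, the NRF1 letters in Mrpl33 and Mrpl32, and none of the 3 motifs in the printed stretch of Mrpl2 or Mrps6. Of the 25 members that rose in ATF4 libraries 23 had a window, and 13 of those held the ETS letters. Of the 10 members that fell in ATF3, CEBPG and CHOP libraries 8 had a window, and 2 held them, beside 25 of all 68 members. These are matches of letters, counted after the calls were known, and no binding was measured.

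The members' summed level moved apart between the groups. It was 3543, 3577, 4125 and 4174 CPM in controls (replicates 4, 5, 7 and 8), and 4392 and 5320 CPM in ATF4 libraries. It was 3242, 3349, 3369, 3383 and 3518 CPM in ATF3 libraries and 2970, 3052, 3287, 3313 and 3404 CPM in CHOP libraries. CEBPG libraries had 3335, 3514, 3792 and 3814 CPM. The ATF4 libraries were all above and the ATF3 and CHOP libraries all below every control, whereas the CEBPG libraries overlapped the controls. This separation held for ATF3 and CHOP only with the TMM factor in the scale: as a plain share of counted reads the members took 0.345%, 0.345%, 0.401% and 0.413% in controls, 0.321% to 0.351% in ATF3 and 0.29% to 0.345% in CHOP libraries, which overlapped the controls. The ATF4 shares of 0.437% and 0.514% were still above all controls. The ratio of large to small subunit reads stayed between 2.02 and 2.25 in all 20 libraries.

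**Figure D2:**
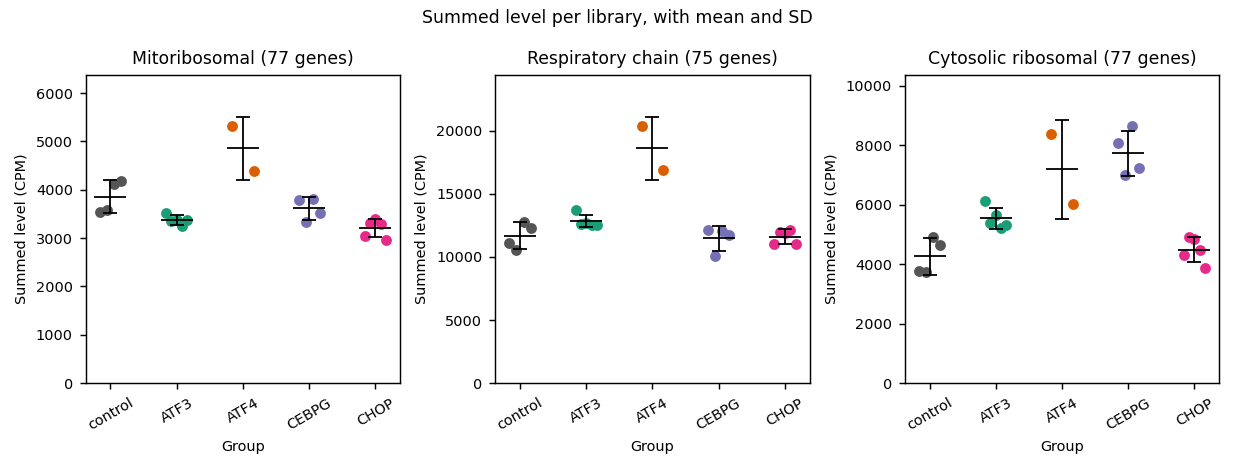
Summed level in CPM per library of the 77 mitoribosomal, 75 nuclear respiratory chain and 77 cytosolic ribosomal protein genes, by group, with group mean and SD (n = 4, 5, 2, 4 and 5 libraries). The mitoribosomal sums of ATF4 libraries (4392 and 5320 CPM) lie above all controls, and those of ATF3 and CHOP libraries lie below them on this TMM scale, though not as a plain share of counted reads.

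In the ATF3 libraries 17 members fell and 2 rose against control (edgeR's quasi-likelihood test with Benjamini-Hochberg adjustment), where 14.8% of all genes tested fell and 18.6% rose. The fall took in Mrpl2, next to the peptidyl transferase centre, Mrpl32, which is matured by a mitochondrial protease before it joins the large subunit, and Mrpl49, a mitochondria-specific large subunit protein. It also took in Mrps22 and Mrps27, mitochondria-specific proteins of the small subunit. The 2 that rose were Mrps6 and Mrpl48, and both calls were lost without control replicate 5 (adjusted p = 0.0523 and 0.0737). The median member had a log2 fold change of -0.12, beside 0.06 for all genes.

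Mrpl2 (chr17:46646229-46650139, plus strand) had the most negative fold change of the members in the ATF3 libraries. It stood at 73.0, 88.7, 93.9 and 103 CPM in controls and at 43.4, 45.2, 46.9, 47.4 and 55.8 CPM in ATF3 libraries, so that the groups did not overlap. Its log2 fold change was -0.91 (SE 0.13, adjusted p = 1.07e-05), and it passed the threshold whichever library was left out. Mrpl49 fell from 96.2 to 141 CPM in controls to 62.6 to 79.6 CPM in ATF3 libraries (log2 fold change -0.67, SE 0.14, adjusted p = 0.000464). Mrpl32 fell from 42.9, 47.9, 54.3 and 75.2 CPM to 29.4, 30.8, 35.7, 35.8 and 37.2 CPM (log2 fold change -0.70, SE 0.16, adjusted p = 0.00176). For both genes every ATF3 library was below every control. Mrps27 (-0.88, SE 0.26, adjusted p = 0.0108) and Mrps22 (-0.69, SE 0.20, adjusted p = 0.00912) were likewise separated from the controls, and the call of Mrps27 was lost without control replicate 8 (adjusted p = 0.0507). Leaving out single libraries gave 12 to 17 members lower, beside 2126 to 2404 of all genes tested.

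In the CHOP libraries 22 members fell and 2 rose, against 15.4% and 18.1% of all genes. The fall was led by the large subunit genes Mrpl2, Mrpl51, Mrpl54 and Mrpl32 and by Mrps22 of the small subunit, and Mrpl48 and Mrps6 were again the 2 that rose. The median member stood at a log2 fold change of -0.21, beside 0.01 for all genes, and 61 of the 77 members had a negative value. Mrpl2 was at 37.9, 39.3, 41.3, 41.9 and 47.6 CPM in CHOP libraries, all below the lowest control. Its log2 fold change of -1.11 (SE 0.13, adjusted p = 6.28e-07) was the most negative of any member in the 7 comparisons. Mrps22 was at 16.9, 19.7, 20.7, 21.9 and 27 CPM, against 32.9, 39.4, 41.9 and 44.7 CPM in controls (log2 fold change -0.90, SE 0.20, adjusted p = 0.00105). Mrpl51 fell by 0.83 on the log2 scale (SE 0.18, adjusted p = 0.000748) and Mrpl54 by 0.75 (SE 0.18, adjusted p = 0.00198), both without overlap. These calls held when each library was left out in turn. Mrpl48, at 86.1 to 95.1 CPM against 63.3 to 84.7 CPM in controls, passed narrowly (log2 fold change 0.30, SE 0.11, adjusted p = 0.0494) and its call was lost without any CHOP library and without control replicates 5 or 7 (adjusted p from 0.0758 to 0.247).

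In the CEBPG libraries 10 members fell and 4 rose (13% and 5.19%), against 15% and 18.3% of all genes. The share that fell was thus near that of all genes, and the share that rose was under it. The median member was at -0.04, beside 0.06 for all genes, and it turned to 0.05 when libraries were scaled by their totals alone, which also moved the median of all genes to 0.15. Those that rose were Mrpl52, a mitochondria-specific protein, Mrpl33 and Mrpl13, large subunit proteins with bacterial counterparts, and Mrps6. Mrpl2, Mrpl49, Mrps2, Mrpl38 and Mrpl51 led the fall. Mrpl52 was at 21.2, 22.7, 23.3 and 25.7 CPM in controls and at 32.3, 35.2, 43.3 and 46.3 CPM in CEBPG libraries. All 4 CEBPG libraries were above the controls (log2 fold change 0.75, SE 0.18, adjusted p = 0.00227). Mrpl33 was at 28.8, 31.9, 43.4 and 46.9 CPM in controls and at 47.4, 51.4, 58.7 and 79.6 CPM in CEBPG libraries (log2 fold change 0.65, SE 0.19, adjusted p = 0.00909). The highest value was that of CEBPG replicate 8, and without this library the call was lost (adjusted p = 0.0715), as it was without control replicate 5 (adjusted p = 0.0548). Mrpl2 was at 42.9, 47.4, 52.9 and 57.5 CPM in the CEBPG libraries, below all controls (log2 fold change -0.83, SE 0.14, adjusted p = 6.34e-05), and Mrpl49 at 54.0, 67.0, 68.0 and 77 CPM (log2 fold change -0.78, SE 0.14, adjusted p = 0.000156). Both calls held whichever library was left out. The call of Mrpl13 was lost without any 1 of 5 libraries and that of Mrpl51 without any 1 of 3. Without CEBPG replicates 6 and 8, which stood apart, 4 members were lower in place of 10, and 2126 of all genes in place of 2526.

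In the ATF4 libraries the direction was the opposite. There 25 members rose and 2 fell, against 16.6% and 14.6% of all genes, and the median member had a log2 fold change of 0.35, beside 0 for all genes. Ganglion cell markers moved in the same direction there, with 6 of 14 higher and 0 lower, but so did markers of other cells. Higher were 9 of 12 amacrine, 6 of 10 Müller glia and 8 of 10 lymphocyte markers, with 0 lower in each. Of 12 microglia markers 5 were higher and 1 lower, of 10 cone markers 1 and 1, and of 10 bipolar markers 1 and 2. All 14 rod markers were lower. The part of these shifts in the members' values was not tested. The members that rose most were Mrps6, Mrpl52, Mrps12, which lines the decoding site of the small subunit, Mrpl36 and Mrpl13. The 2 that fell were Mrps2 and Mrpl50. Mrps12 (chr7:28739641-28741820, minus strand) was at 36.1, 37.1, 37.3 and 37.4 CPM in controls and at 65.9 and 77.1 CPM in the ATF4 libraries. Its log2 fold change was 0.95 (SE 0.19, adjusted p = 0.000589). Mrpl36 was at 63.8 and 74.3 CPM against 30.5 to 43.1 CPM (0.94, SE 0.18, adjusted p = 0.00038), and Mrpl13 at 75.5 and 80.6 CPM against 35.5 to 48.1 CPM (0.91, SE 0.17, adjusted p = 0.000195). For these 3 genes both libraries were above all controls and the calls held when each library was left out. Mrpl52 was at 57.2 CPM in ATF4 replicate 1 and at 33.3 CPM in replicate 3, and its log2 fold change of 0.96 (SE 0.22, adjusted p = 0.00141) lost its call without replicate 1 (adjusted p = 0.163).

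The number of members higher in ATF4 libraries rested on replicate 1. Without that library the members' median log2 fold change was 0.23, against 0.50 without replicate 3 and 0.35 with both. The medians of all genes tested were -0.02, 0 and 0. When the control and ATF4 libraries were fitted alone, 13 members were higher, beside 2034 of all genes tested. The main fit had called 25 members and 2794 of all genes higher. ATF4 replicate 1 is also the library whose sheet sex went against its Y-linked counts. In the authors' deposited table of comparisons 0 members were higher in ATF4 at a false discovery rate (FDR) below 0.05 and 2 were lower, against 2.14% and 3.63% of its 17100 genes, and the median member had a log fold change of -0.12. The rise in the counts was thus not in that table, for which the sources used here state neither model nor covariates.

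**Figure D3:**
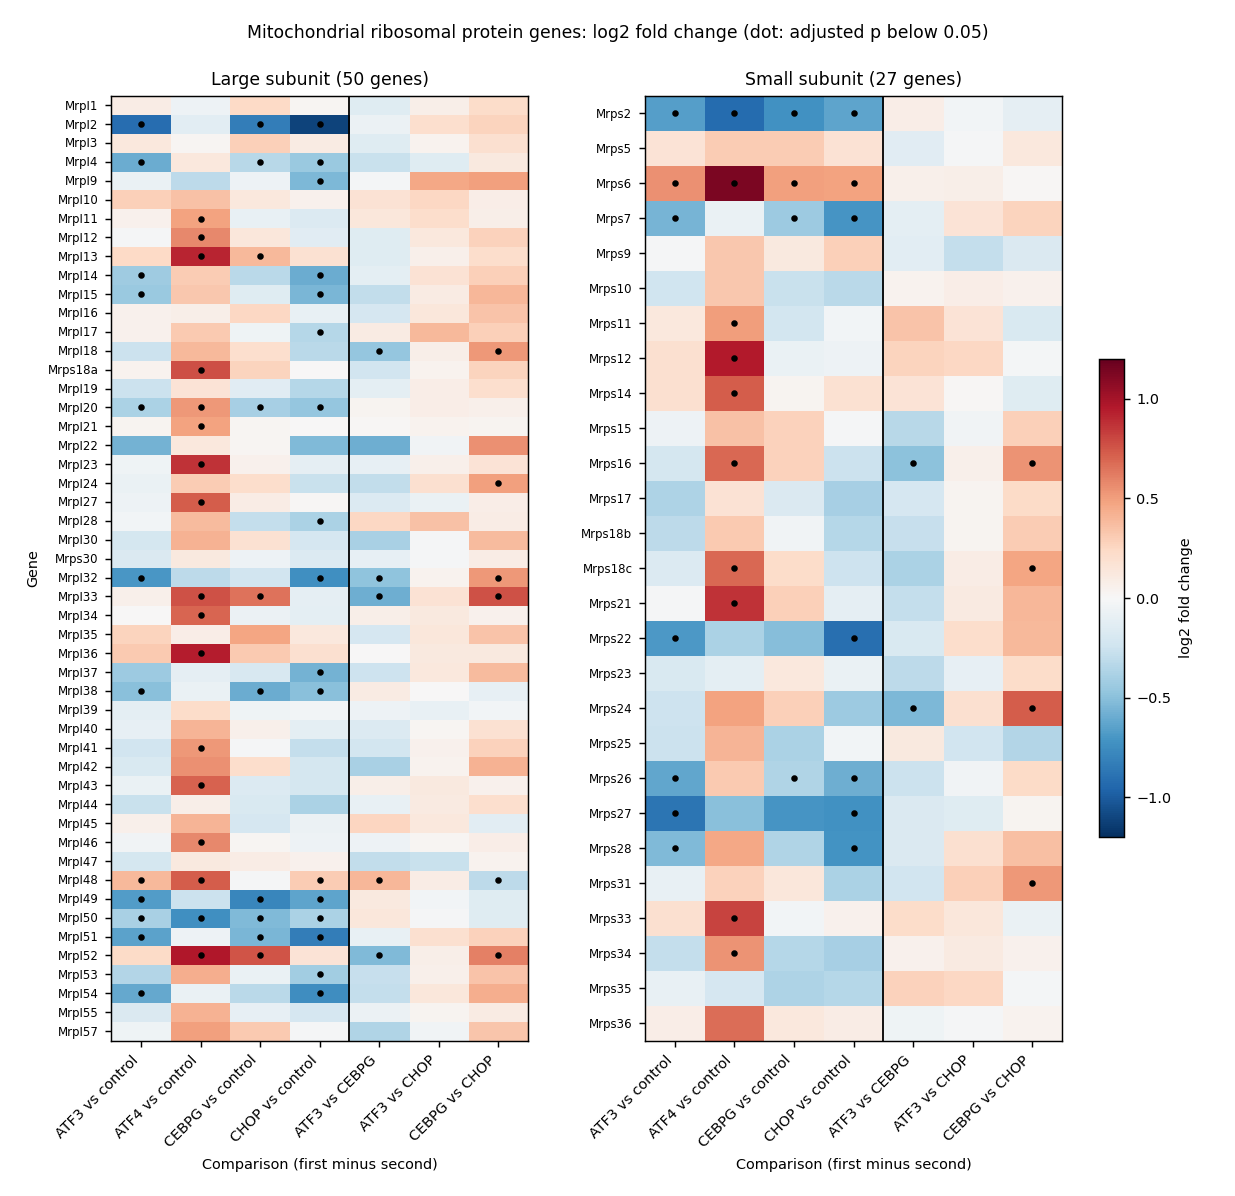
Log2 fold change of each of the 77 members in the 7 comparisons, red for higher and blue for lower in the group named first, with a dot where the adjusted p was below 0.05. The left panel holds the 50 large subunit genes and the right panel the 27 small subunit genes. The ATF4 column is mostly red (25 higher, 2 lower), and the ATF3 and CHOP columns hold 17 and 22 lower calls.

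The comparisons with control share the same 4 control libraries, so calls that recur between them are not independent. Of the 77 members 46 were called in at least 1 of these 4 comparisons and 31 in none. Mrps6 was higher in all 4 and Mrpl50 and Mrps2 were lower in all 4. In the ATF3, CEBPG and CHOP libraries alike 10 members were lower than in controls, namely Mrpl2, Mrpl4, Mrpl20, Mrpl38, Mrpl49, Mrpl50, Mrpl51, Mrps2, Mrps7 and Mrps26. Such recurrence was not counted over all genes tested, so the counts in this paragraph cannot be set against a background share.

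Mrpl50 (chr4:49512596-49521093, minus strand), a mitochondria-specific large subunit protein, was at 75.7, 80.1, 82.1 and 85.8 CPM in controls. It was at 54.7 to 66.1 CPM in ATF3, at 47.9 and 49.3 CPM in ATF4, at 43.9 to 61.6 CPM in CEBPG and at 55.7 to 72.4 CPM in CHOP libraries, so no knockout library reached a control. The log2 fold changes were -0.39, -0.74, -0.53 and -0.38 (adjusted p = 0.0163, 0.00141, 0.00285 and 0.0189). Without control replicate 4 the CHOP call was lost (adjusted p = 0.0501). Mrps2, a small subunit protein with a bacterial counterpart, was at 37.5, 44.3, 48.1 and 71.8 CPM in controls and had log2 fold changes of -0.66, -0.92, -0.73 and -0.63 (adjusted p = 0.0307, 0.0276, 0.0234 and 0.0382). It overlapped the controls in CEBPG, and each of its 4 calls was lost without control replicate 5, the highest control (adjusted p from 0.0758 to 0.16). Its calls were also lost without ATF3 replicates 5 or 9, either ATF4 library, CEBPG replicate 8, or CHOP replicates 1 or 2.

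Mrps6 (chr16:92058270-92112227, plus strand), a small subunit protein with a bacterial counterpart, was at 18.1, 20, 21.7 and 27.1 CPM in controls. It was at 29.3, 30.2, 31.4, 32.5 and 36.4 CPM in ATF3 libraries and at 44.8 and 50.4 CPM in ATF4 libraries. It was at 28.2, 29.0, 32.0 and 33.1 CPM in CEBPG libraries and at 24.6, 27.5, 31.1, 31.5 and 37.1 CPM in CHOP libraries, where the lowest library overlapped the controls. The log2 fold changes were 0.55, 1.13, 0.49 and 0.48 (adjusted p = 0.00945, 0.000125, 0.027 and 0.023). Without control replicate 5, the lowest control, the ATF3, CEBPG and CHOP calls were lost (adjusted p = 0.0523, 0.113 and 0.11), and the ATF4 call held. The CEBPG and CHOP calls were each also lost without control replicates 4 or 8, the CEBPG call without CEBPG replicates 10 or 8, and the CHOP call without CHOP replicates 3 or 4. Mrps6 shares 159 exon bases on the same strand with Slc5a3, a myo-inositol transporter gene, so reads there cannot be assigned with certainty. Slc5a3 itself had log2 fold changes of 1.10 in ATF3, 0.02 in ATF4, 0.79 in CEBPG and 1.57 in CHOP (adjusted p = 0.00091, 0.974, 0.0167 and 1.88e-05), and its part in the Mrps6 values was not tested.

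Mrpl20 was the only member called in opposite directions against control. It was at 65.1, 91.8, 96.5 and 97.6 CPM in controls and at 104 and 148 CPM in ATF4 libraries (log2 fold change 0.52, SE 0.18, adjusted p = 0.0272). It was at 63.1 to 71.5 CPM in ATF3 (-0.38, adjusted p = 0.0393), 64.2 to 71.6 CPM in CEBPG (-0.40, adjusted p = 0.0378) and 51.5 to 73.6 CPM in CHOP libraries (-0.46, adjusted p = 0.0127). Control replicate 5 lay within the range of all 3 of these groups. The ATF4 call was lost without ATF4 replicate 1 (adjusted p = 0.494) and without control replicate 5 (0.132), the ATF3 call without any of 7 libraries (up to 0.104) and the CEBPG call without any of 6 (up to 0.0915), whereas the CHOP call held.

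**Figure D4:**
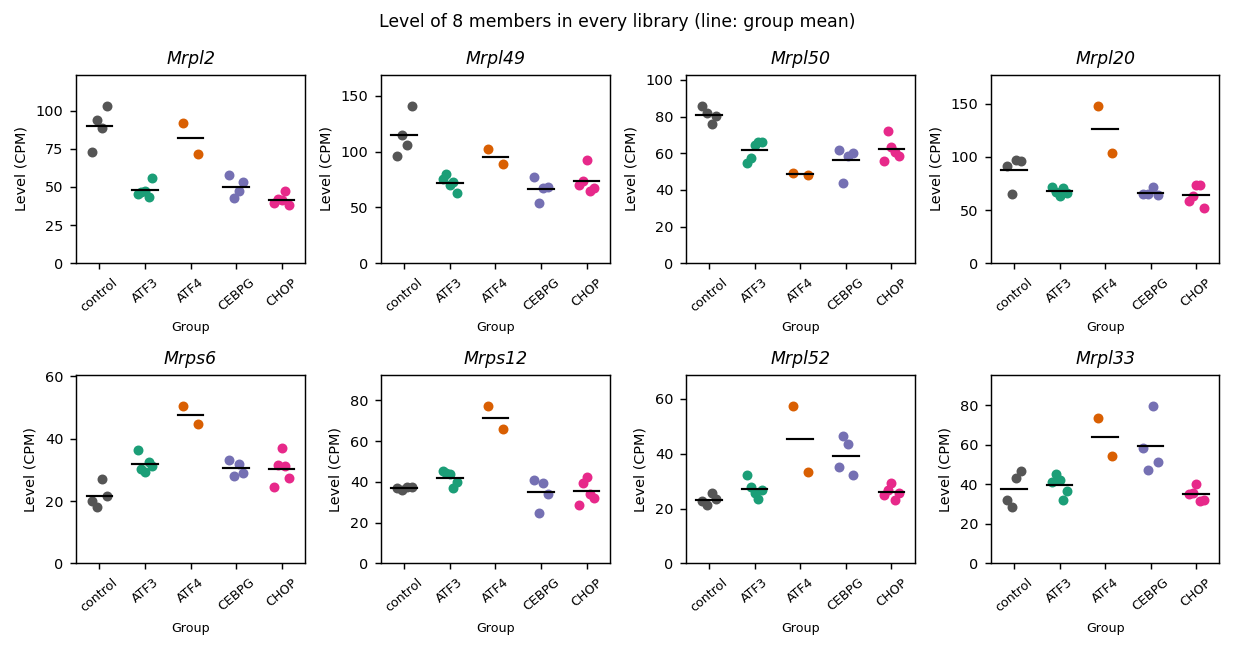
Level in CPM of 8 members in each of the 20 libraries by group, with a line at the group mean. Mrpl2, Mrpl49 and Mrpl50 are below all controls in the ATF3 and CEBPG libraries, and Mrps12 is raised in the 2 ATF4 libraries alone (65.9 and 77.1 CPM against 24.8 to 45.3 CPM elsewhere).

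Within batch 3, where sex and batch were shared, ATF3 and CHOP libraries differed in 0 members by edgeR's quasi-likelihood test, against 1.51% of all genes higher and 0.756% lower in ATF3. At an unadjusted p below 0.05, 3 members were higher and 0 lower, which was not counted over all genes. DESeq2 called 1 member higher and 0 lower, beside 421 and 260 of all genes. The median member differed by 0.07 on the log2 scale. A p that misses the threshold does not show that the levels were alike.

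More members were called between the CEBPG libraries and either of these groups, and so were more of all genes tested. In CEBPG against CHOP 9 members were higher and 1 lower (11.7% and 1.3%). These shares were under the 13.5% and 13.2% of all genes. The median member was at 0.20, beside -0.03 for all genes. The higher members were Mrpl33, Mrps24, Mrpl52, Mrps16, Mrpl18, Mrpl32, Mrps31, Mrpl24 and Mrps18c, and Mrpl48 was lower, a call lost without any 1 of 8 libraries. Mrpl33 was at 31.7, 31.9, 35.3, 35.9 and 40.4 CPM in CHOP libraries, all below the 4 CEBPG libraries (log2 fold change 0.76, SE 0.17, adjusted p = 0.00222). Mrps24, a small subunit protein with a bacterial counterpart, was at 42.4, 47.6, 54.3 and 55.3 CPM in CEBPG and at 20.5, 25.3, 30.4, 35.3 and 38.1 CPM in CHOP libraries (0.73, SE 0.17, adjusted p = 0.00235). Neither gene overlapped between the groups, and both calls held without each library in turn. Mrpl18 differed by 0.52 (SE 0.14, adjusted p = 0.00772), at 73.5 to 99.6 CPM in CEBPG and 58.1 to 65.3 CPM in CHOP libraries. Depending on the library left out, 6 to 14 members were higher, with 6 without CEBPG replicate 8. Of all genes tested, 2004 to 2199 were higher in these fits.

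Against CEBPG, the ATF3 libraries had 1 member higher and 6 lower (1.3% and 7.79%), under the 10.1% and 10.2% of all genes. Mrpl48 was higher, at 93.5 to 104 CPM against 64.3 to 85.7 CPM (log2 fold change 0.40, SE 0.11, adjusted p = 0.0139), a call that held without each single library. The 6 lower were Mrpl33 (-0.59, adjusted p = 0.0185), Mrps24 (-0.54, adjusted p = 0.0255), Mrpl52 (-0.53, adjusted p = 0.0282), Mrps16 (-0.49, adjusted p = 0.0384), Mrpl32 (-0.48, adjusted p = 0.0411) and Mrpl18 (-0.46, adjusted p = 0.0229). The calls of Mrpl33, Mrps24, Mrpl52, Mrps16 and Mrpl32 were each lost without at least 2 single libraries, Mrpl33 without ATF3 replicate 8 (adjusted p = 0.0575) and CEBPG replicate 8 (0.109). The same CEBPG libraries enter both within-batch comparisons. Between 1 and 6 members were lower when single libraries were left out, beside 1396 to 1659 of all genes tested. Without CEBPG replicates 6 and 8, 0 members were called in either direction, where 1060 of all genes were higher and 1334 lower. Lymphocyte markers summed to 335 to 407 CPM in ATF3 and to 293 to 423 CPM in CHOP libraries, far under the CEBPG sums, and amacrine markers to 3150 to 4313 CPM in CEBPG, 5917 to 6215 CPM in ATF3 and 6951 to 8411 CPM in CHOP libraries.

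The makeup of the libraries moved with every one of these comparisons. With the leading component of the markers of other retinal and immune cells as a covariate, edgeR called 0 members in all 7 comparisons. Against control that fit called few genes of any kind. Of all genes tested, 0 were higher and 2 lower in ATF3, and 114 and 162 in ATF4. In CEBPG these counts were 0 and 0, and in CHOP 11 and 6. At an unadjusted p below 0.05, 0 members were higher and 16 lower in ATF3 and 0 and 2 in ATF4. They were 0 and 13 in CEBPG, and 0 and 18 in CHOP against control. Unadjusted shares were not counted over all genes. Of that component's variance 98.6% lay between the groups, so marker level and group cannot be told apart in this fit.

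Called members were found in both subunits in each comparison with control. Against control, 11 of 50 large and 6 of 27 small subunit genes fell in ATF3 libraries, 16 and 6 fell in CHOP libraries, 7 and 3 fell in CEBPG libraries, and 16 and 9 rose in ATF4 libraries. Their medians were -0.09 and -0.18 in ATF3, -0.20 and -0.26 in CHOP, -0.03 and -0.04 in CEBPG, and 0.37 and 0.35 in ATF4. Of the 46 members with bacterial counterparts 9 fell in ATF3, 12 in CHOP and 5 in CEBPG libraries, and 17 rose in ATF4 libraries. Of the 31 mitochondria-specific members 8, 10 and 5 fell, and 8 rose. Of all genes tested 14.8% fell in ATF3, 15.4% in CHOP and 15% in CEBPG libraries, and 16.6% rose in ATF4 libraries. No test was made between these classes.

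Several members share bases or a start region with another gene. Exons of 22 members overlap those of another counted gene, and since the sources used here do not give the strand setting of the counting, such reads may be split or lost. Mrpl48 overlaps Rab6a, a Golgi traffic GTPase gene on the opposite strand, which had log2 fold changes of 0.56 in ATF3, 0.48 in ATF4, 0.12 in CEBPG and 0.61 in CHOP, beside 0.39, 0.73, -0.01 and 0.30 for Mrpl48. Mrpl36 overlaps Ndufs6, a respiratory complex I gene, which had 1.12 in ATF4 libraries (adjusted p = 6.22e-05). Mrpl49 overlaps Syvn1, a ubiquitin ligase gene, at -0.62, -0.51, -0.47 and -0.36 (ATF3, ATF4, CEBPG, CHOP), and stands 59 bases from the start of Fau, a cytosolic ribosomal protein gene. Fau had 0.22, 0.91, 0.74 and -0.05, so this pair did not move together in CEBPG libraries.

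A divergent protein-coding start lay within 1000 bases for 18 members. Mrpl2 stands 207 bases from Klc4, a kinesin light chain gene, which had log2 fold changes of -0.63, -0.22, -0.59 and -0.43 (ATF3, ATF4, CEBPG, CHOP), of which all but the ATF4 value passed the test. Mrpl32 stands 75 bases from Psma2, a proteasome gene, which had 0.36, 0.71, 0.50 and 0.11, where Mrpl32 had -0.70, -0.31, -0.23 and -0.74. Mrps12 stands 172 bases from Sars2, the mitochondrial seryl-tRNA synthetase gene, which had 0.23 in ATF4 libraries (adjusted p = 0.597), where Mrps12 had 0.95. Neighbours across a shared start region thus moved with the member in some pairs and not in others.

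The rest of the mitochondrial translation machinery was read from lists set with earlier results known. As a background, 14.8%, 14.6%, 15% and 15.4% of all genes tested fell in ATF3, ATF4, CEBPG and CHOP libraries, and 18.6%, 16.6%, 18.3% and 18.1% rose. Of 6 mitoribosomal proteins with other symbols, 1 rose in ATF3, 5 in ATF4, 1 in CEBPG and 1 in CHOP libraries, and 0 fell. Dap3, a GTP-binding protein of the small subunit, rose in all 4, with log2 fold changes of 0.40, 0.86, 0.35 and 0.41 (adjusted p = 0.0083, 5.51e-05, 0.0227 and 0.00629). Of 15 translation factors 3 fell in ATF3, 3 in ATF4 and 3 in CHOP libraries (20% each). In CEBPG libraries 1 fell and 2 rose (6.67% and 13.3%). Mtif2, the initiation factor that brings the first transfer RNA, fell in all 4 (-0.62, -0.72, -0.55 and -0.60). Mtfmt, which formylates that transfer RNA, and Gfm2, a ribosome recycling factor, rose in CEBPG libraries (0.77 and 0.37). Mtfmt was also higher in CEBPG than in CHOP libraries by 0.86 (adjusted p = 0.00389).

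Among 20 assembly factors 6 fell in ATF3, 9 in CHOP, 5 in CEBPG and 3 in ATF4 libraries, and 0, 1, 2 and 1 rose. The falls were 30%, 45%, 25% and 15% of the list, beside 14.8%, 15.4%, 15% and 14.6% of all genes. The rises were 0%, 5%, 10% and 5%, beside 18.6%, 18.1%, 18.3% and 16.6%. Nsun4, a ribosomal RNA methyltransferase, fell in all 4 (-1.35, -1.29, -1.43 and -1.41 in ATF3, CHOP, CEBPG and ATF4). Mpv17l2 and Ngrn, both needed for mitoribosome assembly, fell in ATF3 (-0.66 and -0.44), CHOP (-0.65 and -0.52) and CEBPG libraries (-0.58 and -0.57). Mrm1, another ribosomal RNA methyltransferase, went the other way and rose in ATF4 (1.25), CEBPG (0.84) and CHOP libraries (0.80). Of 17 genes of mitochondrial DNA upkeep and transcription or its nuclear regulators, 5 fell in ATF3, 6 in ATF4, 3 in CEBPG and 5 in CHOP libraries, and 1 rose in ATF4 (Esrra, 0.72) and 1 in CEBPG libraries (Myc, 1.26). The falls in that list were 29.4%, 35.3%, 17.6% and 29.4%, to be read against the same shares of all genes. Polg2, the accessory subunit of the mitochondrial DNA polymerase, had log2 fold changes of -3.13, -2.61, -3.07 and -2.90. Nrf1, the factor whose motif letters were searched, fell by 1.01, 0.89, 0.61 and 0.89 on the log2 scale in ATF3, ATF4, CEBPG and CHOP. The genes of mitochondrial DNA itself were not analysed here.

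Counts for 2 related gene families are set beside those of the members, and a difference between the lists was not tested. Among all genes tested 16.6% rose and 14.6% fell in ATF4 libraries, and 18.3% and 15% in CEBPG libraries. In ATF3 and CHOP libraries 18.6% and 18.1% of all genes rose, and 14.8% and 15.4% fell. In ATF4 libraries 66 of 75 nuclear respiratory chain genes rose and 0 fell (median log2 fold change 0.86), and of 77 genes of the cytosolic ribosome 64 rose and 1 fell (0.83), beside 25 and 2 of the 77 members (0.35). In CEBPG libraries 65 cytosolic ribosomal genes rose and 1 fell (0.85), and 7 respiratory chain genes rose and 7 fell (0.12), beside 4 and 10 members. In ATF3 libraries 39 cytosolic ribosomal genes and 14 respiratory chain genes rose and 1 and 4 fell, where 2 members rose and 17 fell. In CHOP libraries 7 cytosolic ribosomal genes rose and 3 fell, and 3 respiratory chain genes rose and 8 fell, beside 2 and 22 members. Within batch 3, CEBPG libraries were higher than CHOP libraries in 69 of the 77 cytosolic genes, in 5 respiratory chain genes and in 9 members, and lower in 0, 3 and 1. For all genes tested these shares were 13.5% higher and 13.2% lower.

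**Figure D5:**
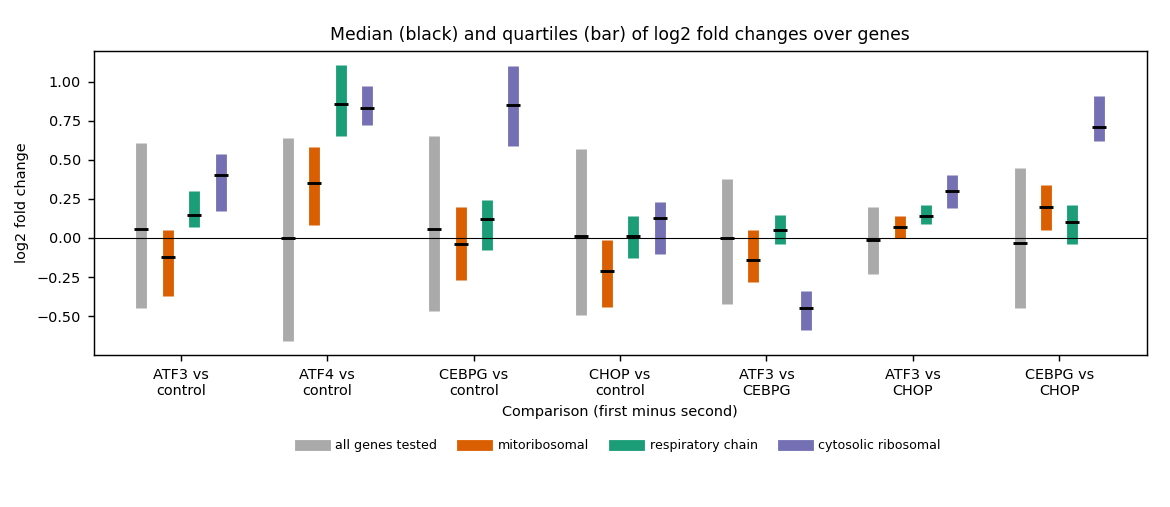
Median (black) and quartiles (bar) of the log2 fold changes over genes in the 7 comparisons, for all 16797 genes tested, the 77 mitoribosomal, 75 respiratory chain and 77 cytosolic ribosomal protein genes. The members' median is -0.12 in ATF3, 0.35 in ATF4, -0.04 in CEBPG and -0.21 in CHOP against control, under the median of the cytosolic ribosomal genes in each.

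The authors' deposited table of comparisons gave other counts. At an FDR below 0.05 it called 0 members in ATF3 (5.24% of all genes higher, 2.75% lower) and 0 in CHOP (5.04% and 2.27%). In CEBPG the authors' deposited table called 5 members higher and 1 lower (11.8% and 10.3%), among them Mrpl52 (0.63, FDR 0.0269), Mrpl33 (0.74, FDR 0.0176), Mrpl13 (0.61, FDR 0.00545) and Mrps2 (-0.91, FDR 0.0364). These 4 genes passed in both, in the same direction. For Mrpl2 the authors' deposited table gave log fold changes of -0.49, -0.63, -0.51 and -0.77 in ATF3, ATF4, CEBPG and CHOP, and its lowest FDR was 0.0547, in CEBPG. For Mrpl50 in ATF4 the authors' deposited table gave -1.08 (FDR 0.0331). The sign was the same in the authors' deposited table and in the counts for 56 of 77 members in ATF3, 46 in ATF4, 63 in CEBPG and 62 in CHOP.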

How the data were processed

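RNA from sorted cells was made into SMART-Seq v4 libraries, per the labels' protocols. The authors deposited raw counts per gene, and STAR, Picard, HTSeq, edgeR and mm10 are named per the submitters' processing notes. The sources used here do not give versions, annotation or strand setting. A table of comparisons was deposited by the authors with log fold changes, taken here as log2, and FDR-adjusted p-values. A deposited sample sheet gave batch, sex, age, aligned reads and the fraction of duplicate reads, all made by the authors by steps not stated, and 41 further per-sample columns of it were not used.

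Counts of 20 libraries were fitted in a single model of 5 groups with edgeR 4.0.16 and limma 3.58.1 in R 4.3.3 (filterByExpr with a minimum count of 10, TMM scaling, quasi-likelihood test, Benjamini-Hochberg adjustment over 16797 genes, threshold 0.05). The fit had 15 residual degrees of freedom and a common biological coefficient of variation of 0.407, and 367 genes were removed by the filter. Log2 fold changes come from the fit, and a positive value means higher in the group named first. A prior count of 2 was used for log2 CPM values only. The code was tested on simulated data, with a fixed dispersion below that of these data and no batch or composition shift. That test does not give the error rate of the calls made here.

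Nothing in the labels says that libraries came from separate animals, and the p-values therefore rest on between-library spread that may be technical. No 2 libraries of a group were alike within sampling noise (chi-square per gene 12.9 to 64.6, from genes whose reads in both summed to 20 or more). Members and lists were chosen with earlier results of these data known. Genes were named as the called members of largest change in each comparison, those called alike or oppositely across knockouts and the extremes in level, and others are named to complete a list. Gene models and coordinates were those of GENCODE M21 (mm10), and promoters came from RefSeq (GRCm38.p6).

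Alternatives were DESeq2 1.42.0, RLE or no scaling, no filter, the compared groups alone, the replicate number as a block, a marker component as covariate, the left-out library as a control, each library left out and, chosen after seeing the data, CEBPG replicates 6 and 8 both left out.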

Additional observations from a re-analysis of the deposited data

Results flagged for a closer look

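In 3 of 112 sets of values of a named member within a group of 4 or 5 libraries, 1 library lay farther from the others than Dixon's 95% critical value allows, and chance flags about 1 in 20 groups. Mrpl48 was at 104 CPM in ATF3 replicate 5, where the other 4 libraries lay between 93.5 and 95.3 CPM. Mrpl20 was at 71.6 CPM in CEBPG replicate 8, where the other 3 lay between 64.2 and 65.2 CPM. Mrpl36 was at 28.5 CPM in CHOP replicate 5, where the other 4 lay between 42.1 and 47.0 CPM.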

How the results depend on the processing

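Of 51 calls of named members, DESeq2 kept 51, RLE scaling 49, no filter 50, no scaling factor 46 and the compared groups alone 41. With CEBPG replicates 6 and 8 left out, 9 calls of comparisons with CEBPG held and 14 were lost. The replicate numbers did not pair the libraries: same-numbered libraries of different groups had correlations of deviations from -0.0476 to 0.0264 over 12 pairs, and 2 of 18 libraries correlated best with their own number. The replicate block left 6 residual degrees of freedom. With it, 2509 of all genes tested were higher and 1775 lower in ATF3 against control, and 613 and 709 in ATF4. These counts were 1645 and 1436 in CEBPG, and 1586 and 1133 in CHOP libraries. Members higher and lower against control were 0 and 7 in ATF3, and 0 and 0 in ATF4. They were 0 and 3 in CEBPG, and 0 and 4 in CHOP libraries. Members were 0 and 0 in ATF3 against CEBPG (1012 and 883 of all genes) and in CEBPG against CHOP (415 and 102). At an unadjusted p below 0.05 the block gave 2 and 14, 10 and 1, 2 and 7, and 0 and 12 against control, and 43 of the 51 calls were lost.

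With the marker component as covariate, member counts were 0 in both directions in each comparison, in a fit that called few of all genes against control. Against control the members' median log2 fold changes were -1.13 (ATF3), -0.09 (ATF4), -1.17 (CEBPG) and -1.12 (CHOP). Between knockouts they were 0.12 in ATF3 against CEBPG and -0.09 in CEBPG against CHOP. In this fit 16 values reversed: Mrpl48 -0.36, Mrps2 0.33 and Mrps6 -0.11 in ATF3; Mrpl20 -0.09 and Mrpl52 -0.07 in ATF4; Mrpl13 -0.80, Mrpl33 -1.39, Mrpl52 -1.79, Mrps2 0.54 and Mrps6 -0.36 in CEBPG; Mrpl48 -0.42, Mrps2 0.31 and Mrps6 -0.14 in CHOP. Within batch, Mrpl52 became 0.03 in ATF3 against CEBPG, and Mrpl18 -0.21 and Mrpl52 -0.07 in CEBPG against CHOP. Of the component's variance 98.6% lay between groups, and the cause was not tested.

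Counts over all genes tested in the same setting are in parentheses. The compared groups alone gave 13 members higher in ATF4 (2034), and 1 higher and 4 lower in CEBPG (2031 and 1856). They gave 0 higher in CHOP (2910), 2 higher in ATF3 against CHOP (620) and 0 lower in CEBPG against CHOP (1451). DESeq2 gave 11 lower in ATF3 against CEBPG (2157), 1 higher in ATF3 against CHOP (421) and 16 higher in CEBPG against CHOP (2628). No scaling factor gave 6 lower in CEBPG (2191), and 15 higher and 0 lower in CEBPG against CHOP (2523 and 1922). RLE scaling gave 1 higher in CHOP (2887) and 0 lower in CEBPG against CHOP (2064), and no filter gave 1 higher in CHOP (3035). The left-out library as a control gave 6 lower in CEBPG (2328) and 1 higher in CHOP (2756). CEBPG replicates 6 and 8 both left out gave 4 lower in CEBPG (2126) and 0 and 0 in ATF3 against CEBPG (1060 and 1334). Leaving both out also gave 0 lower in CEBPG against CHOP (1487). Of all genes called between ATF3 and CHOP, 66.6% were higher in ATF3, and 50.3% when fitted alone. The causes were not tested.

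Leaving out single libraries gave, against control, 0 to 2 higher, 12 to 17 lower and medians of -0.19 to -0.09 in ATF3; 6 to 26, 1 to 2 and 0.23 to 0.50 in ATF4; 1 to 5, 7 to 11 and -0.11 to 0.01 in CEBPG; and 0 to 1, 18 to 25 and -0.31 to -0.17 in CHOP. It gave 1 higher, 1 to 6 lower and -0.17 to -0.09 in ATF3 against CEBPG, 0, 0 and 0.06 to 0.11 in ATF3 against CHOP, and 6 to 14, 0 to 1 and 0.16 to 0.25 in CEBPG against CHOP. The lowest counts of higher members against control came without control replicate 5 (ATF3), ATF4 replicate 1 (ATF4), CEBPG replicate 8 or control replicate 5 (CEBPG), and CHOP replicates 3 or 4 or control replicate 5 (CHOP). Those of lower members came without control replicate 8 (ATF3 and CEBPG), either ATF4 library or control replicate 5 (ATF4), and CHOP replicate 5 or control replicate 7 (CHOP). With 2 ATF4 libraries, leaving out 1 assumes that the other varies like the other groups. Of all genes tested, leaving out single libraries gave 2460 to 3075 higher and 2126 to 2404 lower in ATF3 against control. It gave 2497 to 3085 and 2343 to 2596 in CEBPG, and 2437 to 2981 and 2294 to 2552 in CHOP. No member was near the limit of depth, the lowest count being 55 reads.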
